A study of Mus musculus with 4 samples.

Results

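Transcripts of 9 CC chemokine genes (Ccl2, Ccl3, Ccl4, Ccl5, Ccl6, Ccl7, Ccl8, Ccl9 and Ccl24) and of the chemokine receptor gene Ccr2 were followed in sections of primary mammary tumours and lungs. The 10 genes were chosen by symbol from the 19465 genes in the deposited files, and all 10 were found in each section. Both mice were BALB/c animals that received 100000 cells of the mouse mammary carcinoma line 4T1 in the mammary fat pad at 8 weeks of age, and tissue was taken after 28 days. There was 1 section of the primary tumour and 1 of the lung from each mouse (n = 2 sections per tissue), no lung without injected cells, and a single cell line. The sections are called tumour A and lung A for the mouse with the lower number in the labels, and tumour B and lung B for the other mouse. On a Visium slide for fixed, paraffin-embedded tissue, probe pairs against each gene were captured on barcoded spots, and captured molecules were told apart by a molecular barcode (UMI). Each spot covers a small area in which cells of several types can lie. Levels are given as UMIs of a gene per 1000000 UMIs of the section (CPM) over the 9339 spots with more than 200 genes. Because each gene has its own probes, levels were compared between sections and spots and never between genes.

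CC chemokines are small secreted proteins that attract leukocytes through G protein-coupled receptors. Ccl2, Ccl7 and Ccl8 are monocyte chemoattractants, and Ccr2 is the receptor through which Ccl2 and Ccl7 draw monocytes out of the bone marrow and into tissue. Ccl3 and Ccl4 are macrophage inflammatory proteins made by many activated myeloid cells, Ccl5 is made by T cells, NK cells and macrophages, and Ccl3 and Ccl5 act on Ccr1. Ccl6 and Ccl9 are rodent chemokines of myeloid cells that act on Ccr1, and Ccl24 is eotaxin-2, a ligand of the eosinophil receptor Ccr3 that alternatively activated macrophages also make. In mouse models of breast cancer, Ccl2 and Ccr2 are known for the recruitment of monocytes to tumours and to the lung.

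The sections differed in ways that touch these values. Depth was 13532158 UMIs in tumour A, 10890154 in tumour B, 11122812 in lung A and 30240176 in lung B. In tumour B, 1178 olfactory and vomeronasal receptor genes, which tumour and lung are not known to use, had a median of 6.61 CPM and a 95th percentile of 19.0 CPM, against 95th percentiles of 1.70 CPM in tumour A and 0.539 and 0.397 CPM in the lungs. There Ccl2, Ccl4, Ccl5 and Ccr2 lay below that 95th percentile, so their levels in that section were not told apart from background. A list of 7 genes of 4T1 tumour tissue, led by Mmp3, summed to 4545 and 5243 CPM in the primary tumours but to 109 CPM in lung A and 1245 CPM in lung B. Alveolar epithelium markers summed to 12736 and 7207 CPM in the lungs and to 17.5 and 53.8 CPM in the primary tumours. Macrophage markers summed to 2313 and 505 CPM in the primary tumours and 594 and 1195 CPM in the lungs, and neutrophil markers to 2681, 11585, 83664 and 33940 CPM in the same order. In tissue of this kind, fewer cells of a type and less RNA per cell cannot be told apart.

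In the mouse genome (GRCm38, GENCODE M21) most of the genes lie in a pair of clusters on chromosome 11. Ccl2 (chr11:82035571-82037453), Ccl7 (chr11:82045712-82047525) and Ccl8 (chr11:82115185-82116799) lie on the plus strand in the first. The second holds Ccl5 (chr11:83525778-83530518), Ccl9 (chr11:83572919-83578636), Ccl6 (chr11:83587882-83593087) and Ccl3 (chr11:83647844-83649355) on the minus strand and Ccl4 (chr11:83662584-83664683) on the plus strand. Ccl24 (chr5:135569937-135573049, minus strand) and Ccr2 (chr9:124101950-124113557, plus strand) lie apart. RefSeq promoter sequence was at hand for 5 of the 10 genes (Ccl3, Ccl6, Ccl8, Ccl9 and Ccr2). The 250 bases before the start of Ccl3 and Ccl8 are shown because these chemokines followed different myeloid markers within the primary tumours, and those of the neighbours Ccl6 and Ccl9 because both have the same receptor and differ in their motifs. Capitals mark matches, on either strand, to GGGNNNNNCC (NF-kB), TGANTCA (AP-1) or GAGGAA (the core of the PU.1 site), and the matches shown do not overlap.
Ccl8: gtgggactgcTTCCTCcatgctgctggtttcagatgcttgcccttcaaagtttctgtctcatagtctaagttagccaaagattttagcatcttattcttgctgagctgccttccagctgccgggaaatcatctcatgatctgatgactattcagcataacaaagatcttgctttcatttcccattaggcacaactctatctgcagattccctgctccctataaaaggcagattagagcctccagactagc
Ccl3: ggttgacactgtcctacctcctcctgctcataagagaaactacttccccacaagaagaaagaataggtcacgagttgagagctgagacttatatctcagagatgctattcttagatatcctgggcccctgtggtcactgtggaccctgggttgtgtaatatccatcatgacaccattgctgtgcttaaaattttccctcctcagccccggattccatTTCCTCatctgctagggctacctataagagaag
Ccl6: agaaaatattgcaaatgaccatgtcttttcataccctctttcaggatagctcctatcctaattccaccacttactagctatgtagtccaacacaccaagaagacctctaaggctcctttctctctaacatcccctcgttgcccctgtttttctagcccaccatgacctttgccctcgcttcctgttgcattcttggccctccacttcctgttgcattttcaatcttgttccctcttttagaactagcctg
Ccl9: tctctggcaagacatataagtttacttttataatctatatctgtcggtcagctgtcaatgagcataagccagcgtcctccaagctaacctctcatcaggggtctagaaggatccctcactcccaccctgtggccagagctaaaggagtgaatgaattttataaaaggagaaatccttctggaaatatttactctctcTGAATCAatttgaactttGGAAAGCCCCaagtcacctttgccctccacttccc
The windows were chr11:82114935-82115184 (plus strand) for Ccl8, chr11:83649379-83649628 (minus strand) for Ccl3, chr11:83593088-83593337 (minus strand) for Ccl6 and chr11:83578637-83578886 (minus strand) for Ccl9, in RefSeq on GRCm38.p6. Counted back from the start, Ccl8 had the PU.1 core from -240 to -235 and Ccl3 from -33 to -28, both on the opposite strand. Ccl9 had the AP-1 motif from -53 to -47 and the NF-kB motif from -35 to -26. Of 32851 promoters of the same length, 45.8% held the NF-kB letters, 6.75% the AP-1 letters and 23.3% the PU.1 core. These are matches of letters, and Ccl6 and Ccr2 held none of them in their windows. The window of Ccr2 (chr9:124101933-124102182, plus strand) lies mostly within the gene as placed above.

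The question of how the chemokines differ between the primary tumour and the metastatic lung of the same animals was addressed first. Ccl2 was the member that fell in the lung. It measured 36.8 CPM in tumour A and 18.4 CPM in tumour B (498 and 200 UMIs) and 2.34 and 2.58 CPM in the lungs (26 and 78 UMIs). The lungs were nearly equal and both far below either primary tumour, although the value in tumour B was within the background of that section. Over summed counts the log2 difference (lung minus primary tumour) was -3.21 ± 0.59 (SE), or 9.26-fold lower (edgeR quasi-likelihood test, n = 2 against 2, adjusted p = 0.0140). Lower levels were seen in 2 of 2 mice, and the log2 difference was -3.74 without tumour B (adjusted p = 0.00046) and -2.30 without tumour A (adjusted p = 0.0626). Of 15267 genes tested 7.46% were called (6.31% higher and 1.15% lower in the lung), and 1 of the 10 members was.

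Ccl7 measured 80.1 and 48.0 CPM in the primary tumours and 13.7 and 29.6 CPM in the lungs. Both lungs lay below both primary tumours, by a log2 difference of -1.32 ± 0.44 that did not pass the test (adjusted p = 0.115) but did with the mouse as a block (adjusted p = 0.0401) and without lung B (log2 difference -1.63, adjusted p = 0.0207). Without tumour A its log2 difference was -0.60 (adjusted p = 0.603), without lung A -0.82 (adjusted p = 0.661) and without tumour B -1.76 (adjusted p = 0.0666). Ccl8 measured 118 and 34.3 CPM in the primary tumours and 34.3 and 71.8 CPM in the lungs. Its groups overlapped, and the mice went opposite ways, with log2 differences of -1.39 (mouse A) and 1.27 (mouse B). Macrophage markers also summed lower in lung A than in its primary tumour and higher in lung B than in its primary tumour, and their part in the difference was not tested.

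Ccr2 had the opposite order to Ccl2. It measured 60.9 and 14.7 CPM in the primary tumours and 308 and 94.1 CPM in the lungs, so that both lungs lay above both primary tumours. The log2 difference was 2.75 ± 0.78 (adjusted p = 0.0680), which did not pass the test, and 2.80 with the mouse as a block (adjusted p = 1.6e-08). It was also called with DESeq2 (adjusted p = 0.00143), with DESeq2 size factors in edgeR (adjusted p = 0.0288) and with no filter on low counts (adjusted p = 4.86e-07), and over all fits the adjusted p ranged from 1.9e-09 to 0.158. With the block, 11.9% of the genes were called (9.17% higher and 2.73% lower in the lung) and 4 of the 10 members were, namely Ccl2, Ccl3 and Ccl7 as lower and Ccr2 as higher in the lung. Without tumour B, where Ccr2 was within background, the log2 difference was 1.95 (adjusted p = 0.0764). It was 4.47 without tumour A (adjusted p = 4.56e-05), 1.56 without lung A (adjusted p = 0.0173) and 3.58 without lung B (adjusted p = 1.9e-09), so that its size depended on the section left out. Monocyte markers summed to 247 and 150 CPM in the primary tumours and 944 and 464 CPM in the lungs. Most of this was Plac8, with 837 and 412 CPM in the lungs. F13a1 measured 63.9 and 30.8 CPM in the primary tumours and 92.2 and 47.0 CPM in the lungs. Ms4a4c measured 12.9 and 13.3 CPM and then 15.5 and 5.65 CPM. Of these 3 markers 1 was called higher in the lung (edgeR), and their part in the level of Ccr2 was not tested.

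**Figure D1:**
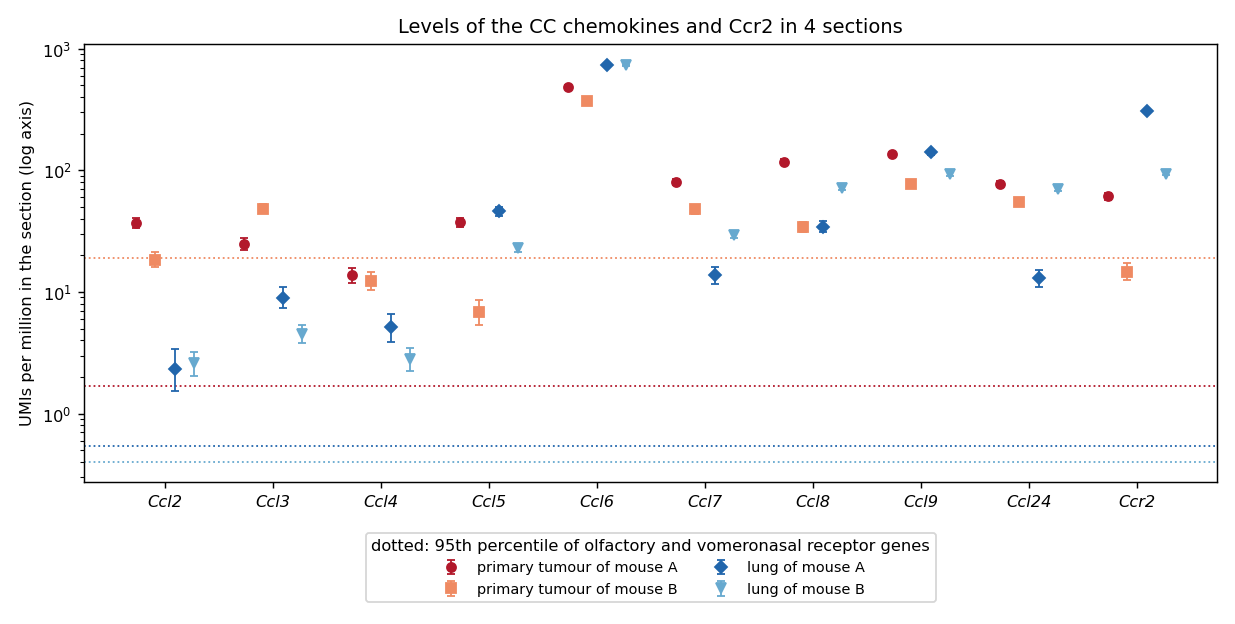
Level (CPM, log axis) of the 9 chemokine genes and Ccr2 in the 4 sections, with exact 95% Poisson intervals that cover counting error only. Dotted lines give the 95th percentile of 1178 olfactory and vomeronasal receptor genes in each section (19.0 CPM in tumour B), below which Ccl2, Ccl4, Ccl5 and Ccr2 of that section lie.

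Of the inflammatory chemokines Ccl3, Ccl4 and Ccl5, Ccl3 measured 24.9 and 48.4 CPM in the primary tumours and 8.99 and 4.53 CPM in the lungs. Both lungs lay below both primary tumours, and the log2 difference of -2.09 ± 0.55 just missed the threshold (adjusted p = 0.0509) and passed it with the block (adjusted p = 0.00547), with DESeq2 (adjusted p = 0.00701), with its size factors in edgeR (adjusted p = 0.0200) and with no filter on low counts (adjusted p = 0.0101). It was called without tumour A (adjusted p = 0.0165) and without lung A (log2 difference -2.65, adjusted p = 0.000359), and not without tumour B (adjusted p = 0.244) or lung B (log2 difference -1.35, adjusted p = 0.125). Ccl4, its neighbour on the chromosome, measured 13.7 and 12.3 CPM in the primary tumours and 5.12 and 2.81 CPM in the lungs, with a log2 difference of -1.38 ± 0.73 (adjusted p = 0.297) that ranged from -1.89 without lung A to -0.71 without lung B. Ccl5 measured 37.3 and 6.80 CPM in the primary tumours and 45.9 and 22.8 CPM in the lungs. Its groups overlapped, with the lowest value in tumour B, where 51.3% of the receptor genes lay below it. The log2 difference of 0.95 ± 0.73 did not pass the test (adjusted p = 0.490), but was 3.001 (adjusted p = 0.00214) without tumour A, 1.60 (adjusted p = 0.00875) without lung B and 0.08 (adjusted p = 0.990) without tumour B.

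Of the rodent chemokines Ccl6 and Ccl9, Ccl6 measured 487 and 369 CPM in the primary tumours and 733 and 727 CPM in the lungs. Both lungs lay above both primary tumours, with a log2 difference of 1.07 ± 0.44 that did not pass the test (adjusted p = 0.185). After spots with at least 1000 UMIs (1604 of 2490 in tumour A, 2316 of 2372 in tumour B, 1687 of 1697 in lung A and 2775 of 2780 in lung B) had been thinned to that number, Ccl6 was found in 38.7% and 30.9% of primary tumour spots and in 50.4% and 51.4% of lung spots, against a median of at most 1.60% for the receptor genes in any section. Over all kept spots, before thinning, the shares were 61.2% and 56.1% in the primary tumours and 94.5% and 96.3% in the lungs. Ccl9 measured 136 and 77.7 CPM in the primary tumours and 140 and 92.9 CPM in the lungs, and its groups overlapped, with a log2 difference of 0.44 ± 0.44 (adjusted p = 0.620).

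Ccl24 measured 77.3 and 54.9 CPM in the primary tumours and 12.9 and 70.4 CPM in the lungs. Lung A stood apart from the other 3 sections, and the mice differed in direction, with log2 differences of -2.18 (mouse A) and 0.56 (mouse B). The fit over both mice gave -0.47 ± 0.60 (adjusted p = 0.717), and -1.74 (adjusted p = 0.0120) without lung B. Ccr3, the receptor of Ccl24 and an eosinophil marker, was at 0.961 and 12.6 CPM in the primary tumours and 1.98 and 1.26 CPM in the lungs, below the 95th percentile of the receptor genes in the primary tumours and above it in the lungs. All 5 eosinophil markers together summed to between 2.51 and 34.3 CPM, and in tumour B, where the sum was highest, each of them lay within the background.

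**Figure D2:**
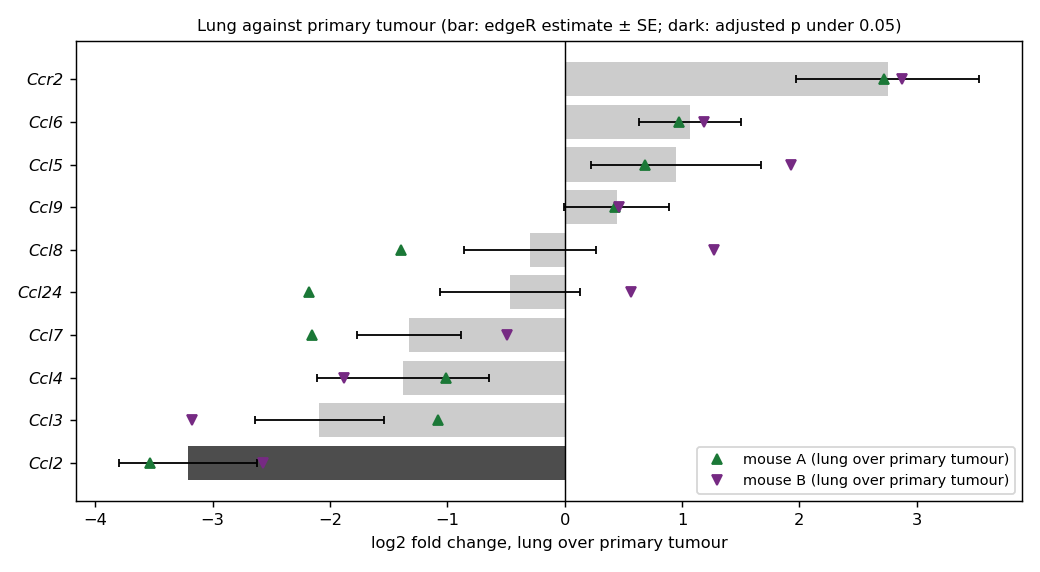
Log2 fold change of lung over primary tumour for each gene (bars, edgeR estimate ± SE, 2 sections per tissue) with the value within each mouse (triangles). The dark bar of Ccl2 marks an adjusted p under 0.05, Ccr2 stands at the other end, and the mice fall on opposite sides of 0 for Ccl8 and Ccl24.

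The median log2 difference of the 10 members was -0.38, beside -0.0046 over all genes tested, with 4 members above 0 and 6 below. Of 12 other CC chemokine genes, 7 could be tested, and 0 were called and 0 had an unadjusted p under 0.05 (edgeR, median log2 difference -0.76). Of 13 other CC receptor genes, 11 could be tested and 1 was called, Ccr1, the receptor of Ccl3, Ccl5, Ccl6 and Ccl9. Ccr1 measured 25.8 and 28.7 CPM in the primary tumours and 119 and 54.4 CPM in the lungs, a log2 difference of 2.02 ± 0.48 (adjusted p = 0.0359). Ackr2, a decoy receptor that takes up inflammatory CC chemokines, measured 1.55 and 8.54 CPM in the primary tumours and 37.3 and 19.8 CPM in the lungs and just missed the threshold (log2 difference 2.88 ± 0.75, adjusted p = 0.0501). Of 10 neutrophil markers 9 were called higher in the lung, while 0 of 10 macrophage markers were called in either direction (0 at an unadjusted p under 0.05 in edgeR), and the part of these markers in the chemokine levels was not tested.

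Within each lung, spots were ranked by their share of UMIs on the 7 tumour genes, and the richest 25% (tumour-marker-rich spots) were set against the poorest (tumour-marker-poor spots), to ask which chemokines accompany tumour tissue in the lung. The 2 lungs were not alike in this ranking, since 1110 of the 1697 spots in lung A held no UMI of these genes. All 1110 were the poor class of lung A, which is thus much more than 25% of its spots, whereas the poor class of lung B was the poorest 25%. The rich spots began at 0.0138% of UMIs in lung A and at 0.147% in lung B. Ccl24 had the widest span in lung B and in the fit, while in lung A the log2 differences of Ccl2, Ccl7 and Ccl8 were larger. In lung B it went from 17.1 to 27.5, 56.2 and 124 CPM over successive 25% of spots, and in lung A it was 10.3 CPM in the spots without tumour genes and 21.6 CPM in the rich spots. The log2 difference was 2.69 for mouse B and 0.96 for mouse A, and 1.89 ± 0.47 in the fit with the mouse as a block, which did not pass the test (adjusted p = 0.162). In the primary tumours Ccl24 went from 77.5 to 76.3 CPM in tumour A and from 40.5 to 59.5 CPM in tumour B, and the difference between the tissues was not tested for this ranking. The rich and poor spots of lung B also differed in depth, with 11701868 and 4808378 UMIs. Ccl24 measured 29.4 CPM in the shallowest and 107 CPM in the deepest 25% of spots of lung B, and the part of depth was not tested.

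Ccl7 was 8.99 and 26.1 CPM in the poor and rich spots of lung A and 12.5 and 38.4 CPM in those of lung B. The differences within the mice were close (1.41 and 1.45 on the log2 scale), and the fit gave 1.46 ± 0.42 (adjusted p = 0.214). Ccl8 was 23.9 and 58.3 CPM in lung A and 48.5 and 83.7 CPM in lung B (fit 0.91 ± 0.34, adjusted p = 0.259). Ccl2 remained scarce also in the rich spots, at 5.50 CPM in lung A (15 UMIs) and 3.33 CPM in lung B (39 UMIs), against 1.16 and 1.87 CPM in the poor spots (fit 1.38 ± 0.90, adjusted p = 0.439). Ccr2 and Ccl6 had the opposite order, above all in mouse B. Ccr2 was 144 CPM in the poor and 45.5 CPM in the rich spots of lung B, and 318 and 291 CPM in those of lung A (fit -1.01 ± 0.48, adjusted p = 0.310). Ccl6 was 1057 and 515 CPM in the poor and rich spots of lung B, and stayed between 713 and 742 CPM in lung A (fit -0.67 ± 0.56, adjusted p = 0.552). No gene of 12875 was called in this comparison (edgeR, 0% called, with 2224 genes and 3 members, Ccl7, Ccl8 and Ccl24, at an unadjusted p under 0.05), and DESeq2 called 85 genes and no member, with no adjusted p for Ccl2, Ccl3 and Ccl4. With no filter on low counts 647 genes were called and Ccl24 was among them (adjusted p = 0.00431). Macrophage markers had a median log2 difference of 1.17 here and neutrophil markers of -2.002, and their part in these values was not tested.

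**Figure D3:**
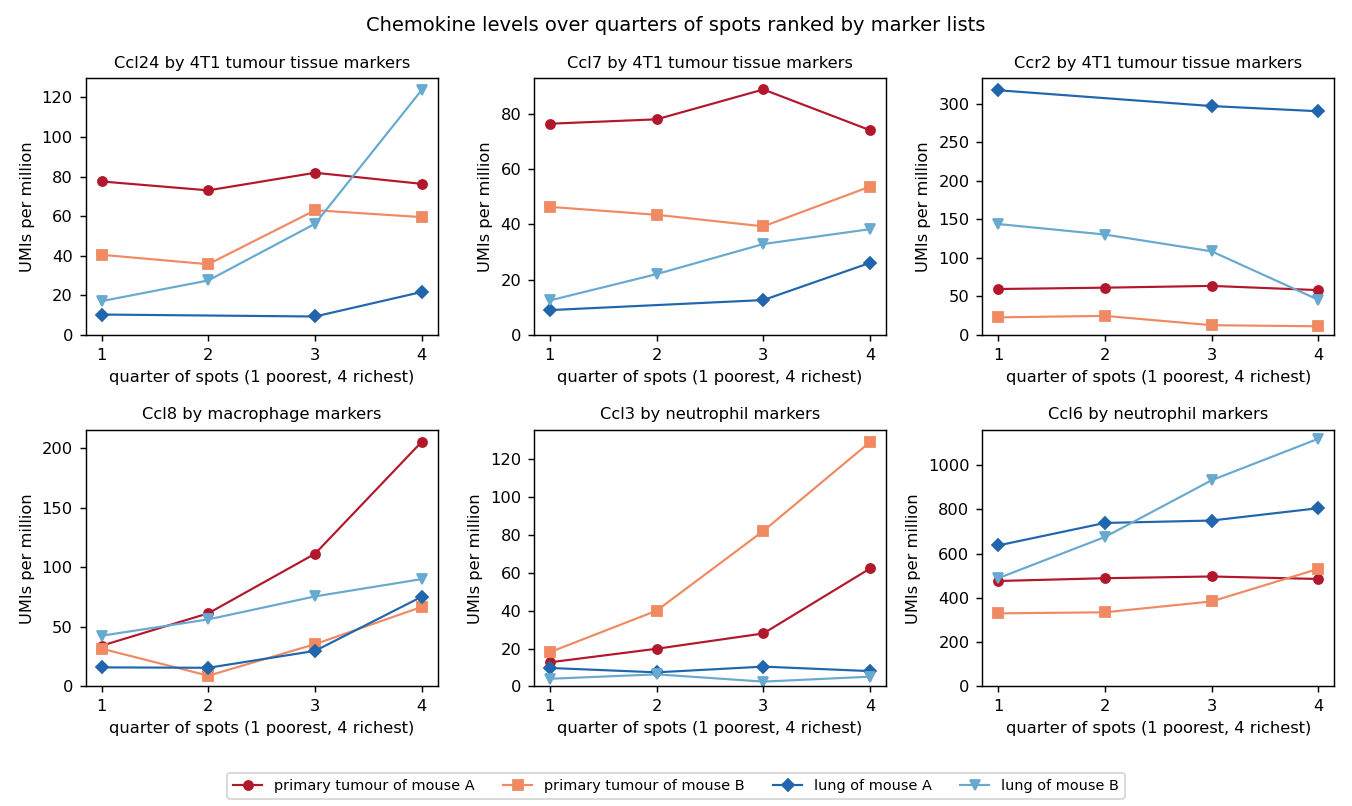
Levels (CPM) of 5 chemokines and Ccr2 over successive 25% of the spots of each section, ranked by the share of UMIs on a marker list, from the poorest (1) to the richest (4). In lung A the lower steps by tumour genes are merged because 1110 spots held none. In tumour B the first step by macrophage markers holds the 931 spots without any. Ccl24 reaches 124 CPM in the richest spots of lung B, and Ccl3 129 CPM in the spots of tumour B that are richest in neutrophil markers.

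Tumour-marker-rich lung spots were then compared with the whole primary tumours, which are the same sums as in the first comparison, so that the comparisons share their primary tumour samples. Ccl2 was 5.50 and 3.33 CPM in these lung spots and 36.8 and 18.4 CPM in the primary tumours, a log2 difference of -2.60 ± 0.65 (adjusted p = 0.223 without and 0.0463 with the mouse as a block). Ccl3 was 9.17 and 4.44 CPM in these lung spots against 24.9 and 48.4 CPM (log2 difference -2.36 ± 0.59, adjusted p = 0.224 without and 0.0325 with the block). Ccr2 was 291 and 45.5 CPM against 60.9 and 14.7 CPM (log2 difference 2.24 ± 0.93, adjusted p = 0.425 without and 0.0276 with the block), and this value depended on lung A. Without lung A the log2 difference was 0.40 (adjusted p = 0.859), and it was 3.92 without tumour A (adjusted p = 0.0590), 1.55 without tumour B (adjusted p = 0.898) and 3.10 without lung B (adjusted p = 2.18e-06). Ccl2 and Ccl3 were called as lower without lung A (adjusted p = 0.00206 and 0.000189) and in none of the other 3 fits that left out a section. The log2 difference of Ccl2 ranged in these fits from -3.04 to -1.65, the latter without tumour A (adjusted p = 0.539), and that of Ccl3 from -2.79 to -1.70, with an adjusted p of up to 1.0 (without tumour B). Without the block 0.0535% of 14950 genes were called and 0 members were (edgeR, 3 at an unadjusted p under 0.05, and 2 called by DESeq2, beside 1683 and 796 of all genes), and with it 2.48% of genes and 3 members were. Ccl24 was 21.6 and 124 CPM in these lung spots against 77.3 and 54.9 CPM, on opposite sides of the primary tumour of the same mouse, and the log2 difference was 0.19 ± 0.67 (adjusted p = 0.958). These lung spots still differed from primary tumour in their markers, with a median log2 difference of -2.21 for tumour markers, 6.34 for alveolar epithelium markers and 3.08 for neutrophil markers, and the part of these in the values was not tested.

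The richest and poorest 25% of spots by macrophage markers (macrophage-marker-rich and macrophage-marker-poor spots) were compared within each tissue, since macrophages are a known source of several of these chemokines. In tumour B the poor class was all 931 of 2372 spots without a UMI of these markers, which is more than 25% of its spots. In the primary tumours Ccl8 was the member that rose. It measured 34.1 CPM in the poor and 205 CPM in the rich spots of tumour A (51 and 845 UMIs), and 31.7 and 66.8 CPM in those of tumour B (59 and 175 UMIs). Both mice had the higher value in the richer spots, and the log2 difference was 1.98 ± 0.42, or 3.94-fold (mouse as a block, adjusted p = 0.00359). Of 17050 genes 0.27% were called (0.17% higher), and 1 of the 10 members was. The call was lost without the block (log2 difference 2.22, adjusted p = 0.248), with library size as the only scaling (1.85, adjusted p = 0.200) and after thinning to 1000 UMIs (0.61, adjusted p = 0.711), and without the C1q genes in the macrophage list it held at 1.22 (adjusted p = 0.000207). Thinning also dropped the spots under 1000 UMIs and redrew the classes, so that the poor class became 730 of 1604 spots in tumour A and 1501 of 2316 in tumour B, and these changes cannot be told apart. Between the unthinned classes 10 of 10 neutrophil markers were below 0 (median log2 difference -0.92) and 8 of 9 T and NK cell markers above 0 (median 0.46), none of them called. Of 7 tumour markers 6 were above 0 (median 0.16) and 1 was called higher. Of 3 keratinocyte markers tested 2 were above 0 (median 0.85) and 0 were called (edgeR, 2 at an unadjusted p under 0.05). The part of all these markers was not tested. In tumour A the poor spots were also the shallower, with a median of 641 UMIs per spot against 3490, whereas in tumour B the medians were 1560 and 1605. The neighbouring gene Ccl12, another monocyte chemoattractant and not a member, was the other CC chemokine that rose (log2 difference 2.52 ± 0.41, adjusted p = 1.97e-06), and it measured 102 and 15.9 CPM in tumours A and B and 15.2 and 35.6 CPM in the lungs. In tumour B that level lay within the background.

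The rest of the members were not called in the primary tumours. Ccl7 measured 54.9 and 100.4 CPM in the poor and rich spots of tumour A and 44.1 and 58.4 CPM in those of tumour B (log2 difference 0.78 ± 0.37, adjusted p = 0.548). Ccl5 had a log2 difference of 1.11 ± 0.36 (adjusted p = 0.208) and Ccl3 of -0.64 ± 0.32 (adjusted p = 0.592). Ccl24 went opposite ways, from 116 to 64.2 CPM in tumour A and from 44.6 to 91.2 CPM in tumour B (fit 0.20 ± 0.40, adjusted p = 0.884).

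In the lungs Ccl7, Ccl8 and Ccl24 had the lowest p-values among the members, and none of them was called. Ccl7 measured 3.28 and 29.3 CPM in the poor and rich spots of lung A and 14.3 and 40.0 CPM in those of lung B (log2 difference 1.98 ± 0.42, adjusted p = 0.0752). Ccl8 measured 15.99 and 75.1 CPM in lung A and 42.6 and 90.1 CPM in lung B (1.46 ± 0.31, adjusted p = 0.0796). Ccl24 measured 9.84 and 19.1 CPM in lung A and 21.8 and 112 CPM in lung B (1.68 ± 0.36, adjusted p = 0.0833). Both mice had the higher value in the richer spots for all 3 genes. Ccr2 had the opposite order, with 319 and 297 CPM in lung A and 139 and 65.5 CPM in lung B (-0.72 ± 0.33, adjusted p = 0.240). Of 12325 genes 0.0487% were called in this comparison, and of the 10 members edgeR called 0 (4 at an unadjusted p under 0.05) and DESeq2 called 2, Ccl8 and Ccl24, with no adjusted p for Ccl2, Ccl3, Ccl4 and Ccl7. With no filter on low counts Ccl7, Ccl8 and Ccl24 were called (adjusted p = 0.000183, 0.000926 and 0.000465) among 911 genes, and after thinning their log2 differences were 0.24, 0.39 and 0.56. Over all settings that gave an adjusted p, Ccl8 was called in 3 of 10, Ccl24 in 2 of 10 and Ccl7 in 1 of 9. Over all genes 2714 had an unadjusted p under 0.05 in edgeR and DESeq2 called 267. Tumour markers had a median log2 difference of 1.69 between the same spots and neutrophil markers of -1.53, and their part was not tested. In lung B the rich spots were also the deeper, with a median of 15266 UMIs per spot against 6800. In lung A the medians were 6415 and 5584, and the part of depth was not tested.

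The difference of these macrophage contrasts between lung and primary tumour was tested itself, and edgeR called 0.144% of 18034 genes and 0 members (3 at an unadjusted p under 0.05, beside 1412 of all genes). DESeq2 gave an adjusted p to Ccl6 alone among the members and did not call it (adjusted p = 0.176). Ccl24 had the lowest p among the members (log2 difference of the contrasts 1.33 ± 0.47, adjusted p = 0.267), and it was called in 1 of the 4 fits that left out a section, without lung A (1.90, adjusted p = 0.00223). The other 3 gave 0.65 without tumour A, 2.54 without tumour B (adjusted p = 0.191) and 0.50 without lung B, with an adjusted p of up to 1.0. Ccl8, called in the primary tumours and not in the lungs, had a difference of -0.67 ± 0.46 with an interval from -1.57 to 0.24 (adjusted p = 0.833).

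**Figure D4:**
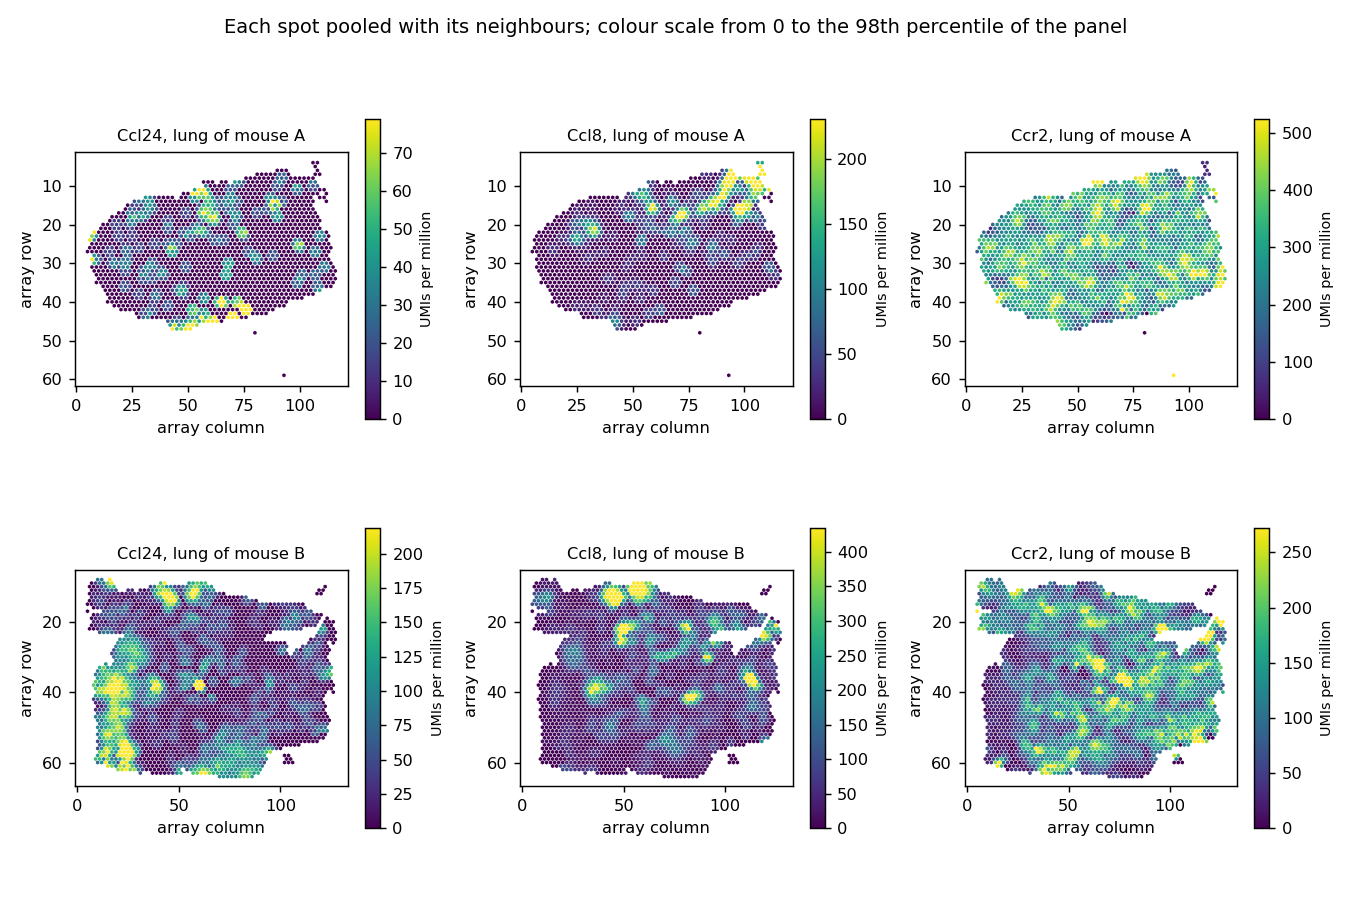
Ccl24, Ccl8 and Ccr2 in lung A (top) and lung B (bottom) by array row and column, each spot pooled with its direct neighbours, in CPM with a colour scale of its own per panel. In lung B Ccl24 is high along a margin of the section where Ccr2 is low, and Ccl8 is high in small separate patches.

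The maps of the lungs show how unevenly these transcripts were spread. Moran's I, which is 0 for a random arrangement of spots and nears 1 for a smooth one, was 0.385 for Ccl24 and 0.316 for Ccl8 in lung B and 0.0465 and 0.306 in lung A. For Ccl2 it was 0.0278 and 0.000713 in lungs A and B, where counts were low, and 0.0793 and 0.0081 in the primary tumours. The richest 5% of spots held 37.9% of all Ccl24 UMIs and 40.5% of all Ccl8 UMIs in lung B, but 19.8% of Ccr2 and 13.9% of Ccl6 UMIs. Moran's I of Ccl6 was nevertheless 0.359 in lung B, and 0.139 in lung A. Counts in lung B also differed, with 21990 UMIs of Ccl6, 2845 of Ccr2, 2172 of Ccl8 and 2130 of Ccl24.

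Neutrophil markers divided the chemokines differently from macrophage markers. In the primary tumours Ccl3 went over successive 25% of spots, ranked by neutrophil markers, from 12.7 to 19.9, 28.0 and 62.3 CPM in tumour A and from 18.1 to 40.0, 82.1 and 129 CPM in tumour B, a steady order in both. No such order was seen in the lungs, where Ccl3 stayed between 2.6 and 10.49 CPM. Ccl3 also differed with depth, at 46.6 CPM (11 UMIs) in the shallowest and 18.9 CPM in the deepest 25% of spots of tumour A. In tumour B these values were 66.7 CPM (47 UMIs) and 27.5 CPM, and the part of depth was not tested. Ccl4 was 12.1 and 19.5 CPM in the poorest and richest 25% of tumour A and 7.9 and 26.9 CPM in those of tumour B. Ccl8 had the reverse order to Ccl3, with 175 and 71.3 CPM in the poorest and richest spots of tumour A, 44.5 and 19.7 CPM in tumour B, 88.7 and 13.9 CPM in lung A and 72.9 and 34.6 CPM in lung B. In the lungs Ccl7 was 34.5 and 3.6 CPM (lung A) and 35.3 and 7.5 CPM (lung B) in these spots, while Ccl6 was 637 and 805 CPM (lung A) and 488 and 1119 CPM (lung B). These values are descriptions of spots ranked after earlier results of these data were known, and no test was run on them.

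Sections were also divided into blocks of 6 array rows by 12 columns, and the correlation of log2 CPM between each chemokine and each marker list was taken over the blocks (74 and 69 in the primary tumours, 51 and 81 in the lungs). Blocks of a section share a library and neighbouring blocks are not independent, so that these correlations are descriptions. In the primary tumours Ccl3 correlated with neutrophil markers (r = 0.62 and 0.66 in mice A and B) and Ccl8 with macrophage markers (r = 0.59 and 0.50). In the lungs Ccl24 correlated with tumour markers (r = 0.60 and 0.71) and with macrophage markers (r = 0.46 and 0.72). Ccl7 correlated there with macrophage markers (r = 0.66 and 0.52), dendritic cell markers (r = 0.65 and 0.52) and tumour markers (r = 0.51 and 0.52). The dendritic cell sum was led by 1 gene, Fscn1, with 58.1 of 115 CPM in lung A and 289 of 317 CPM in lung B. Fscn1 also measured 347 and 301 CPM in the primary tumours. Ccr2 correlated in the lungs with monocyte markers, which were mostly Plac8 in CPM (r = 0.40 and 0.79). With neutrophil markers the values of Ccr2 were nearly the same (r = 0.39 and 0.78), and with Ccl24 they were negative (r = -0.42 and -0.60). With larger blocks of 8 rows by 16 columns the last value was -0.099 in lung A and -0.74 in lung B. Those of Ccr2 with monocyte and neutrophil markers were then 0.22 and 0.27 in lung A and 0.89 and 0.88 in lung B. Ccl8 in lung A correlated most with fibroblast markers (r = 0.81), beside 0.27 in lung B. Ccl6 correlated in lung B with endothelial (r = 0.79), neutrophil (0.74), monocyte (0.70) and alveolar epithelium markers (0.69), and negatively with tumour markers (-0.69). In lung A the values were -0.11, 0.007, 0.029, -0.12 and -0.069 in the same order. Depth moved with some of these values, since the correlation with the total UMIs of a block was 0.41 for Ccl24, 0.51 for Ccl7 and -0.49 for Ccr2 in lung B and -0.19, 0.18 and 0.52 in lung A. With the larger blocks the value of Ccl24 in lung A was 0.105. For Ccl3 in tumours A and B the correlation with total UMIs was 0.13 and -0.22, and with the larger blocks 0.46 and -0.59.

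**Figure D5:**
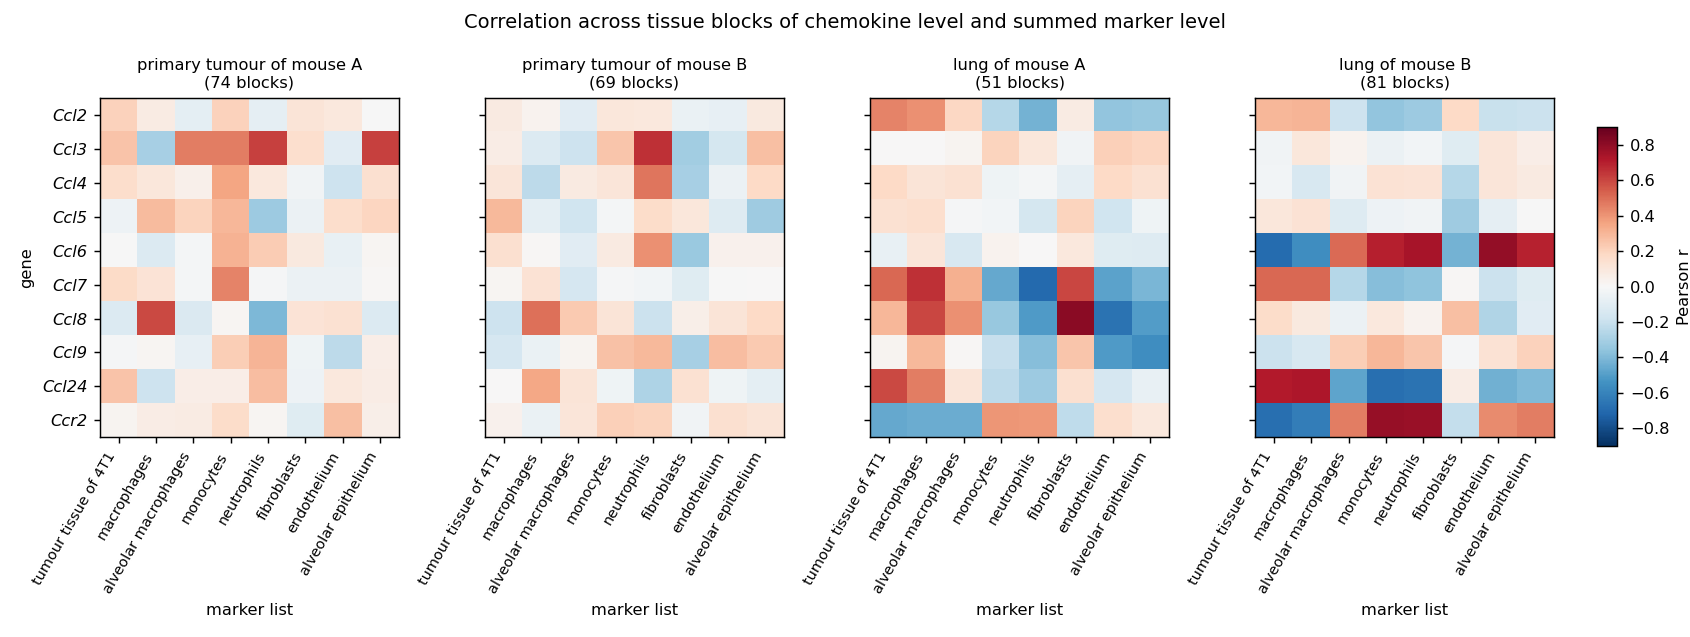
Pearson correlation across blocks of each section between the log2 level of each chemokine gene (rows) and the summed log2 level of 8 marker lists (columns), from negative (blue) to positive (red). Ccl3 with neutrophil markers and Ccl8 with macrophage markers stand out in both primary tumours, and Ccl24 with tumour markers in both lungs, in lung B beside a value of 0.72 with macrophage markers. The value of Ccl3 with alveolar markers in tumour A rests on a list that summed to 17.5 CPM there.

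The genes most like each member were sought among 7595 genes in the primary tumours and 7145 in the lungs, by the lower of the correlations in the 2 mice over the same blocks, for members with at least 20 CPM in a section of that tissue. In the primary tumours Ccl3 was most like Wfdc21 (r = 0.71 and 0.67 in mice A and B), G0s2 (0.67 and 0.64) and Srgn (0.61 and 0.66), and Ccl8 was most like Ctss (0.61 and 0.54), Irf7 (0.59 and 0.53) and Apoe (0.56 and 0.39). In the lungs Ccl7 was most like Lgmn (0.67 and 0.62), Ctsl (0.64 and 0.61) and Spp1 (0.64 and 0.61), and Ccl8 like Mt2 (0.63 and 0.57), H2-Ab1 (0.53 and 0.60) and Cd74 (0.54 and 0.52). Ccl24 was most like Impdh2 (0.65 and 0.62), Plau (0.61 and 0.72), which is in the tumour list, and Ctsz (0.60 and 0.67) in the lungs. Ccr2 was most like Clec12a (0.69 and 0.72), Trp53inp1 (0.68 and 0.76) and Dmxl2 (0.68 and 0.67) there, and Ccl5 like the interferon-induced genes Ifi44 (0.57 and 0.45), Irgm1 (0.47 and 0.44) and Irgm2 (0.43 and 0.44). For Ccl2, Ccl5, Ccl7, Ccl9, Ccl24 and Ccr2 in the primary tumours, the closest gene reached at most 0.42 in the mouse with the lower value.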

How the data were processed

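UMI counts for each gene and spot were made by the authors with Space Ranger 2.0.0 on mm10 and deposited without normalization. Spots with more than 200 genes were kept (9339 of 9445). Counts were summed per section or class of spots and tested in R 4.3.3 with edgeR 4.0.16 (TMM, filterByExpr, quasi-likelihood test, Benjamini-Hochberg adjustment over all genes tested, threshold 0.05). DESeq2 1.42.0 was an alternative. The mouse was a block where classes of the same sections were compared, and otherwise an alternative, printed where it changed a call. Both tissues came from the same animals, and the sums of a mouse deviated from the group means with a correlation of -0.293 for lung against primary tumour, 0.563 for tumour-marker-rich against -poor spots, -0.363 for tumour-marker-rich spots against primary tumour, and 0.868 and 0.626 for the macrophage classes in primary tumour and lung. The members, marker lists and rules were chosen with earlier results of these data known. Named genes are the members, the 3 genes most like each member and markers of lists led by 1 gene. The others are those of the lists of other CC chemokines and receptors that were called, nearly called or are receptors of members. Block correlations used log2 of CPM plus 10. The result for 1 gene of these lists is not reported here. The p-values rest on the spread between sections of 2 mice, which edgeR shares over all genes tested, and counting intervals cover counting error only.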

Additional observations from a re-analysis of the deposited data

Results flagged for a closer look

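Ccl8 differed in direction between tissues in both mice when spots were ranked by tumour markers, and for Ccl5 such a difference rested on mouse A. For Ccl8 the log2 ratio of the richest over the poorest 25% of spots (1 CPM added to each; in lung A the poorest were all 1110 spots without a UMI of a tumour marker) was -1.38 and -0.73 in tumours A and B and 1.26 and 0.77 in lungs A and B. For Ccl5 it was -0.84 and -0.0139 in the tumours and 0.67 and 0.42 in the lungs, and the level of Ccl5 in tumour B was within background. These differences between tissues were not tested.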

How the results depend on the processing

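With 2 mice, the spread of a single gene is poorly known, and edgeR takes much of it from the other genes tested. Small p-values, above all in fits with the mouse as a block, thus do not measure the spread of that gene between the mice. The shallow spots of tumour A and the raised background of tumour B limit low genes there. Counts of called genes depended on the processing, and the cause was not tested. For lung against primary tumour 1139 genes were called, but 2644 with DESeq2, 328 with library size as the only scaling, 2022 with no filter on low counts, 1817 with the mouse as a block and 883 to 6604 without 1 section. For tumour-marker-rich against -poor lung spots 0 genes were called, but 85 with DESeq2, 50 with library size only and 647 with no filter. For tumour-marker-rich lung spots against primary tumour 8 were called, but 796 with DESeq2, 17 with DESeq2 size factors in edgeR, 4 with library size only, 750 with no filter, 371 with the block, 4 with the upper 10% of spots and 156 to 1421 without 1 section. For the macrophage classes in the primary tumours 46 were called, but 17 with DESeq2, 166 with its size factors, 1 with library size only, 166 with no filter, 8 without the block, 277 with the upper and lower 10% of spots, 18 without the C1q genes in the macrophage list and 23 after thinning to 1000 UMIs. For those in the lungs 6 were called, but 267 with DESeq2, 911 with no filter, 8 without the C1q genes and 18 after thinning. With DESeq2 size factors, library size only, no block or the 10% of spots, 0 were called there. For the difference of the macrophage contrasts 26 were called, but 0 with DESeq2 size factors, 0 with library size only, 14 with no filter, 0 without the block, 214 with the 10% of spots, 41 without the C1q genes, 12 after thinning and 0 to 813 without 1 section. Where 1 section was left out, the lone section of its group was taken to vary like the others. A crossed pairing of the mice, chosen after seeing the data, gave 2565 calls for lung against primary tumour (4 members, as with the true pairing) and 390 for tumour-marker-rich lung spots against it (1 member, against 3 with the true pairing). Library size as the only scaling moved the median log2 difference of all genes to -0.31 for lung against primary tumour and to 0.36 for the difference of contrasts.

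Of the member log2 differences under the alternatives, 568 kept their direction and side of the threshold, 42 came to pass it, 4 no longer passed, 49 turned in direction and 3 untested values moved by more than the spread between mice. The turned values were those of members not called in the comparison concerned, as follows on the log2 scale. Values without an adjusted p in DESeq2 are not in these counts, and of them Ccl4 in the macrophage classes of the primary tumours (-0.0239) and Ccl9 in the difference of contrasts (0.065) also turned. In tumour-marker-rich against -poor lung spots, Ccl3 was 0.0016 with library size only. In tumour-marker-rich lung spots against primary tumour, Ccl8 was 0.0523 with no filter, 0.23 with the block, 0.21 with the crossed block, 0.25 with the upper 10% of spots and 0.089 with spots ranked by the ratio of tumour to alveolar markers, and Ccl24 was -0.216 with the block and -0.219 with the crossed block. In the macrophage classes of the primary tumours, Ccl3 was 0.19 without the C1q genes and 0.223 after thinning, and Ccl4 was -0.0314 with DESeq2 size factors, -0.104 with library size only and -0.0514 with the 10% of spots. Ccl7 was -0.0722 after thinning there, and Ccl9 was -0.0371 with DESeq2, -0.0377 with its size factors, -0.108 with library size only, -0.0067 without the block and -0.0264 with the 10% of spots. Ccl24 was -0.0367 without the block and -0.325 after thinning, and Ccr2 was 0.0129 with no filter, 0.0453 without the block, 0.148 with the 10% of spots, 0.342 without the C1q genes and 0.126 after thinning. In those of the lungs, Ccl5 was -0.359 after thinning. In the difference of contrasts, Ccl3 was -1.63 after thinning, Ccl5 was 0.275 without the C1q genes, and Ccl9 was 0.0646 with DESeq2 size factors, 0.285 with library size only and 0.108 without the C1q genes. Without 1 section, lung against primary tumour ranged from -1.02 to 1.19 for Ccl8, -0.0306 to 1.23 for Ccl9 and -1.74 to 0.395 for Ccl24. The same omission gave -0.703 to 1.49 for Ccl8, -0.165 to 1.03 for Ccl9 and -1.39 to 1.1 for Ccl24 in tumour-marker-rich lung spots against primary tumour, and -0.92 to 0.0588 for Ccl4, -0.643 to 0.114 for Ccl5, -1.17 to 0.376 for Ccl8 and -0.367 to 0.14 for Ccl9 in the difference of contrasts. Thinned fits were not run for the tumour-marker classes, because both limits of the classes were 0 in lung A. With blocks of 8 rows by 16 columns, 56 of the correlations with tumour, macrophage and neutrophil markers moved by more than the SD between the mice and 64 by less. No other call of a member was changed by the mouse as a block than those given with the results.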
